A study of Homo sapiens with 4 samples.

Results

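Transcription factor genes of 4 kinds, 10 in all, were followed: the FOS family (*FOS*, *FOSB*, *FOSL1* and *FOSL2*), the JUN family (*JUN*, *JUNB* and *JUND*), *ATF3*, *EGR1* and *EGR3*. They were chosen by name as the AP-1 and immediate early factors, and all 10 were found among the 18449 gene symbols of the count table and among the 18066 symbols with at least 1 read in any library, which were tested. Bulk RNA sequencing covered 2 patient-derived cell lines of atypical teratoid/rhabdoid tumors of the MYC group (AT/RT-MYC), BT-16 and CHLA-266. Each line gave 1 untreated library and 1 library from cells that had received 1 µM doxorubicin, 5 µM etoposide and 1 µM vincristine one after the other at intervals of 24 h. By the methods of the study, most cells died and the treated cells sequenced were those that grew again after about 35 days. Both conditions shared the medium, with fetal bovine serum and insulin, transferrin and selenium. Untreated cells were not described as grown for the same time without drug, so drug exposure, survival and time in culture cannot be told apart.

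AP-1 is a dimer of basic leucine zipper proteins, usually a JUN protein with a FOS or ATF partner. JUN proteins can pair with each other, whereas FOS proteins need a JUN partner to bind DNA. Immediate early genes such as *FOS*, *JUNB* and *EGR1* are switched on within minutes of serum, growth factors or stress without new protein synthesis, through kinases that act on SRF, ELK and CREB factors already present in the cell, and their messages are short-lived. *FOSL1* and *FOSL2* respond more slowly, *JUND* is produced rather steadily, *ATF3* is a stress-induced factor, and the EGR proteins are zinc finger factors that bind GC-rich sites.

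Upstream stretches of 5 of these genes are shown because they hold matches to short regulatory motifs within the 250 bases before the RefSeq start (GRCh38.p14), and because *EGR1* changed most and *FOS*, *JUNB* and *FOSB* are the classic rapid responders. The windows of 8 of the 10 genes were searched, 9 windows in all, and those of *FOSL1* and *EGR3* were not. Capitals mark the match: in *EGR1* 2 CArG boxes, the sites of SRF; in *JUND* the cyclic AMP response element TGACGTCA; in *FOS*, *JUNB* and *FOSB* the TATA box TATAAA.
EGR1 (chr5:138465364-138465415, plus strand): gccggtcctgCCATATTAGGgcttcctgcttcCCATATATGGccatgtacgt
JUND (chr19:18281805-18281832, minus strand): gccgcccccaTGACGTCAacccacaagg
FOS (chr14:75278785-75278810, plus strand): aaacgcttgtTATAAAagcagtggct
JUNB (chr19:12791445-12791470, plus strand): actagcgcggTATAAAggcgtgtggc
FOSB (chr19:45467956-45467981, plus strand): gtcccgggcaTATAAAtacaggctgg
Both strands were searched, and no match overlapped another. The *EGR1* boxes lay 105 to 96 and 83 to 74 bases before the start, the *JUND* element 200 to 193 bases before it, and the TATA boxes of *FOS*, *JUNB* and *FOSB* began 33, 31 and 30 bases before it. Of 35116 promoter windows of this length, 1.16% held a CArG box, 1.65% TGACGTCA and 10.7% TATAAA. The AP-1 site TGACTCA, in 4.2% of all windows, and the EGR site GCGTGGGCG, in 0.72%, were in none of the 9 windows. The windows of *JUN*, *FOSL2* and the first start of *ATF3* held no match, and the second *ATF3* start had TATAAA 230 to 225 bases upstream.

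The libraries held 49849257 to 75087193 counts, the treated ones fewer than the untreated ones in both lines. With edgeR's quasi-likelihood test and p-values adjusted after Benjamini and Hochberg, 2910 of 18066 genes were higher after treatment (16.1%) and 3454 lower (19.1%), with a median log2 fold change of 0.24 over all genes tested. The dividing-cell genes *MKI67* (109853 and 96814 counts untreated, 1262 and 1386 treated) and *TOP2A* were among the lower ones. *SMARCB1*, the gene inactivated in AT/RT, had between 827 and 1394 counts in every library. Marker lists of 4 other cell classes (leukocytes, endothelium, glia and neurons, fibroblasts and pericytes) summed to between 0.747 and 9.42 CPM (counts scaled to library size with TMM) in untreated and between 6.52 and 19.3 CPM in treated libraries, and 10 of their 19 tested genes passed the test for higher. Of the leukocyte markers, *CD68* was at 0 in both treated libraries, *CD3E* in all but treated BT-16 and *CD14* in untreated BT-16, and the pericyte and fibroblast marker *LUM* was at 0 in both CHLA-266 libraries. Olfactory receptor genes, 335 genes that these cells are not expected to use, had a 95th percentile of 4.17 and 4.38 counts per kilobase of exon in the untreated and 31.3 and 23.6 in the treated libraries of BT-16 and CHLA-266. None of the 10 markers of other cell classes called higher stood above that percentile in both treated libraries. The level of a gene in treated cells is therefore given against that percentile where it is low. Whether these shifts play a part in the results was not tested. In bulk RNA, fewer cells that express a gene and less RNA per cell cannot be told apart.

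After treatment, *FOSL2*, *JUN* and *ATF3* rose and *EGR1* fell, in both cell lines, and the other 6 genes did not pass the test. Thus 3 of 10 genes were called higher, against 16.1% of all genes tested, and 1 of 10 lower, against 19.1%. With 10 genes, neither count is read as a feature of the group. With the cell line as a block, which the shared origin of the 2 libraries of a line allows, *FOS* also rose and *JUNB* also fell, giving 4 higher (17.9% of all genes) and 2 lower (23.7%). The treated levels lay above both untreated levels for *FOS*, *FOSL2*, *JUN* and *ATF3*, 4 of 10 genes against 40.2% of all genes, and below both for *JUND* and *EGR1*, 2 of 10 against 32.3%. With 2 libraries per condition, permuting the labels of 1 gene exactly gives a two-sided p of at least 0.333, so the calls rest on the spread that edgeR pools over genes. That spread includes the difference between the cell lines, and p-values say nothing of repeat cultures of 1 line.

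**Figure D1:**
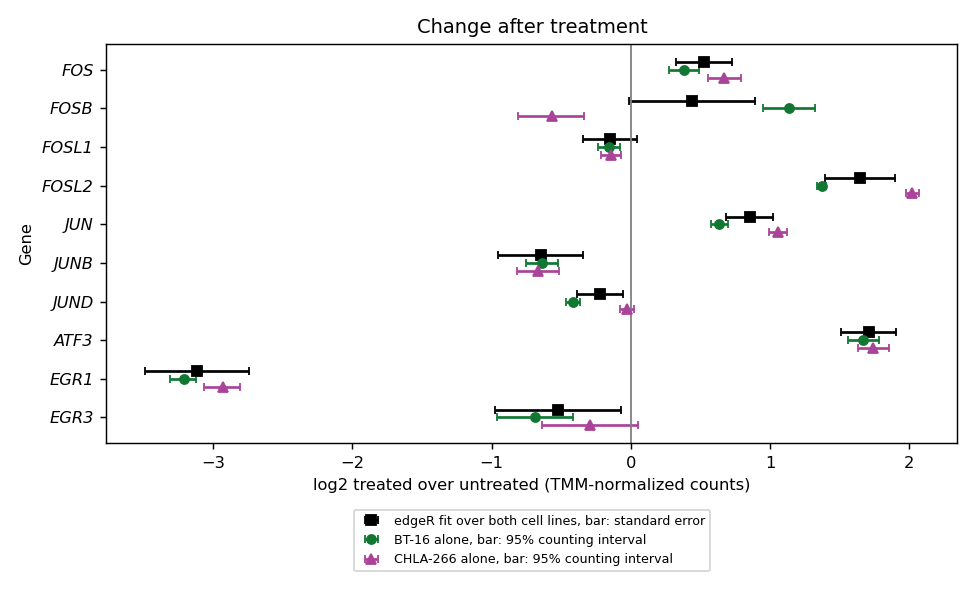
The horizontal axis gives the log2 ratio of treated to untreated cells and the vertical axis the 10 genes. Squares are the edgeR fit over both lines with its standard error; circles (BT-16) and triangles (CHLA-266) are each line's own ratio with the 95% counting interval. *EGR1* lies farthest to the left at -3.12, *FOSL2* and *ATF3* farthest to the right, and the markers of *FOSB* fall on opposite sides of 0.

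Among the FOS family, *FOSL2*, which encodes Fra-2, gave the clearest rise. BT-16 went from 9403 counts to 20357 with treatment, and CHLA-266 from 4881 to 16724. In CPM, BT-16 went from 136 to 352 and CHLA-266 from 79.3 to 322. Both treated libraries were above both untreated ones, and the untreated lines were farther apart than the treated lines. The edgeR log2 fold change was 1.64 (standard error, SE, 0.25, edgeR adjusted p = 0.00175). Within the lines, the log2 ratio was 1.37 (95% counting interval 1.33 to 1.40) in BT-16 and 2.02 (1.97 to 2.07) in CHLA-266. These intervals cover counting error only, and with 1 library per line and condition the difference between lines was not tested. *FOSL2* lies on chromosome 2 from 28392448 to 28417317 on the plus strand (hg38), and the 2 noncoding genes that overlap it share none of its exonic bases.

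*FOS*, the founding member (chromosome 14, 75278826 to 75282230, plus strand), went from 1310 to 1428 counts with treatment of BT-16, and from 1042 to 1400 with treatment of CHLA-266. Its CPM went from 19.0 to 24.7 in BT-16 and from 16.9 to 26.9 in CHLA-266. Raw counts of treated and untreated BT-16 cells were close, and the treated library was the shallower one. The log2 fold change of 0.52 (standard error 0.20) had an adjusted p of 0.0717 in edgeR and of 0.0350 with the cell line as a block. Of the 10 alternative fits, 7 called it higher, with log2 fold changes from 0.50 to 0.87, and DESeq2 with the same block did not (adjusted p = 0.0529). None of the 4 edgeR fits that left out 1 library called it, with adjusted p from 0.0838 to 0.267 and log2 fold changes from 0.44 to 0.61. The within-line log2 ratios were 0.38 (0.27 to 0.49) in BT-16 and 0.67 (0.55 to 0.79) in CHLA-266.

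*FOSB*, another serum-responsive member of the family, moved in opposite directions in the 2 lines. In BT-16 it went from 5.36 to 11.8 CPM, a log2 ratio of 1.13 (0.95 to 1.32), and in CHLA-266 from 6.63 to 4.46 CPM, a log2 ratio of -0.57 (-0.81 to -0.33). The BT-16 to CHLA-266 ratio was 0.809 before treatment and 2.64 afterwards, and whether the lines differ in this was not tested. Of the 10 genes only *FOSB* had opposite directions, as did 5.62% of all genes with both counting intervals excluding 0. Pooled over the lines, the log2 fold change was 0.44 (SE 0.45, edgeR adjusted p = 0.457). *FOSB* stood at 3.92 times the olfactory receptor 95th percentile in treated BT-16 and 1.77 times in treated CHLA-266 cells. The gene (chromosome 19, 45467995 to 45475179, plus strand) lies within *ERCC1* on the opposite strand without sharing exonic bases. *ERCC1* fell in the same comparison (log2 fold change -0.66, edgeR adjusted p = 0.0418), with ratios of -0.73 in BT-16 and -0.57 in CHLA-266.

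*FOSL1*, which encodes Fra-1, went from 46.2 to 41.5 CPM with treatment of BT-16 and from 57.7 to 52.1 CPM with treatment of CHLA-266. The groups overlapped, the lines differed more than the conditions, and the adjusted p was 0.545 in edgeR. The within-line log2 ratios were -0.16 (-0.23 to -0.08) and -0.15 (-0.22 to -0.07). *FOSL1* lies on chromosome 11 from 65892049 to 65900573 on the minus strand. The sign of this small difference depended on scaling, at 0.19 with upper-quartile normalization.

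Because these levels differ in gene length, the make-up of the family was compared as CPM per kilobase of exon. Their sum in the FOS family was 49.3 ± 1.64 before and 81.4 ± 0.576 after treatment (SD, n = 2 cell lines), a ratio of 1.61 in BT-16 and 1.70 in CHLA-266. *FOSL1* was the leading member before treatment, with 48.6% of the sum in BT-16 and 63.5% in CHLA-266. After treatment it held 27.1% and 33.8%. *FOSL2* went from 37.7% to 60.7% in BT-16 and from 23.0% to 54.9% in CHLA-266 and led the family in both treated libraries. *FOS* held between 9.57% and 11.8% in all 4 libraries and *FOSB* at most 2.62%. These shares do not depend on library scaling, and the longest annotated transcript in place of the exon length gave the same order of members.

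**Figure D2:**
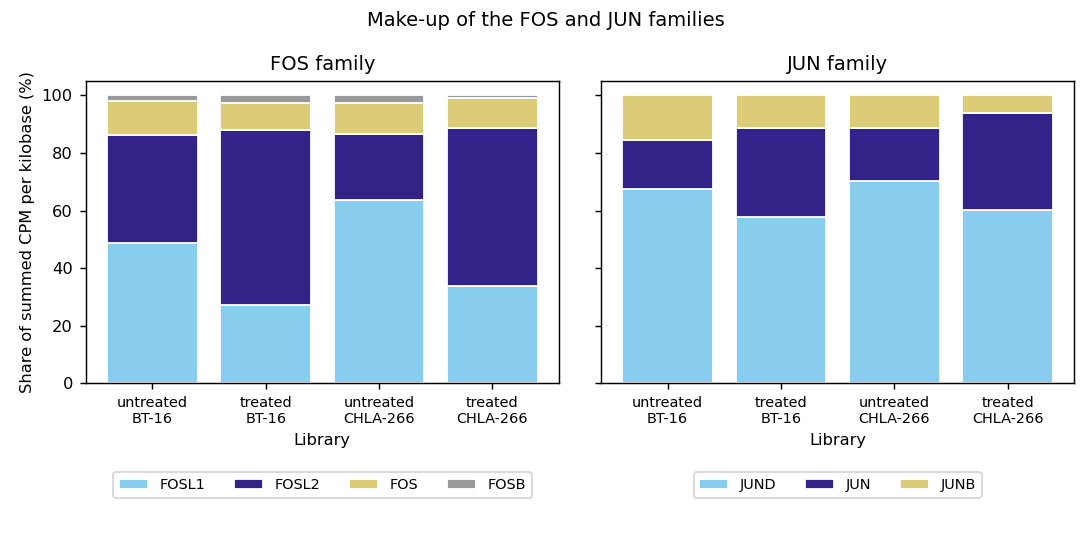
Stacked bars give each gene's share (percent) of the summed CPM per kilobase of its family in each of the 4 libraries, the FOS family on the left and the JUN family on the right. The *FOSL2* part is 60.7% and 54.9% in the treated libraries and the *FOSL1* part 27.1% and 33.8%. *JUND* stays the largest part of the JUN family in every library.

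In the JUN family, *JUN*, the partner with the strongest transactivating domain, rose. BT-16 had 3941 counts before and 5130 after treatment, CHLA-266 3271 before and 5738 after. Expressed as CPM, *JUN* went from 57.1 to 88.7 in the former and from 53.1 to 110 in the latter. The untreated libraries were close together and both treated libraries were higher. The log2 fold change was 0.85 (SE 0.17, edgeR adjusted p = 0.00645), with ratios of 0.64 (0.58 to 0.70) in BT-16 and 1.06 (0.99 to 1.12) in CHLA-266. *JUN* is a single-exon gene on chromosome 1 (58776845 to 58784048, minus strand).

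*JUNB*, a weaker activator that competes with JUN for partners, had 1764 counts before and 951 after treatment of BT-16, and 1012 before and 538 after treatment of CHLA-266. The log2 ratios of the 2 lines were nearly equal, -0.64 (-0.75 to -0.52) and -0.67 (-0.82 to -0.51). The groups still overlapped, because treated BT-16 cells, at 16.5 CPM, were just above untreated CHLA-266 cells at 16.4 CPM. BT-16 exceeded CHLA-266 by 1.56 times before and 1.59 times after treatment. The log2 fold change of -0.65 (standard error 0.31) did not pass in edgeR (adjusted p = 0.128) and passed with the cell line as a block (standard error 0.21, adjusted p = 0.0152), the 1 alternative of 10 that called it. Leaving out 1 library gave -0.29 without untreated BT-16, -0.34 without treated CHLA-266, -0.93 without untreated CHLA-266 and -1.02 without treated BT-16, and the last alone was called (edgeR adjusted p = 0.00571). An exon of *HOOK2* on the opposite strand covers 259 bases of the single *JUNB* exon (chromosome 19, 12791486 to 12793315, plus strand). The library kit keeps the strand, but the strand setting of the counting was not given in the sources used here. *HOOK2* had a log2 fold change of 0.28 (edgeR adjusted p = 0.386).

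*JUND* (chromosome 19, 18279694 to 18281622, minus strand) had 118 CPM before and 88.5 after treatment of BT-16, and 107 before and 105 after treatment of CHLA-266. Both treated values were below both untreated ones, but in CHLA-266 by little: the ratio was -0.42 (-0.47 to -0.37) in BT-16 and -0.03 (-0.08 to 0.02) in CHLA-266. Its log2 fold change was -0.22 (SE 0.17, edgeR adjusted p = 0.318) and turned positive, at 0.13, with upper-quartile normalization. Per kilobase, the family sum was 85.2 ± 8.30 before and 85.1 ± 8.08 after treatment (SD, n = 2 cell lines), with a ratio of 0.871 in BT-16 and 1.14 in CHLA-266. Within it *JUN* went from 17.3% to 30.9% in BT-16 and from 18.5% to 33.6% in CHLA-266. *JUNB* went from 15.3% to 11.3% and from 11.3% to 6.23%. *JUND* held the largest share throughout, 67.3% and 70.2% before and 57.8% and 60.2% after treatment.

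*ATF3*, a stress-induced factor that pairs with JUN proteins and can repress or activate, rose in both lines by ratios whose counting intervals overlapped. It went from 13.3 to 42.2 CPM in BT-16 and from 15.1 to 50.5 CPM in CHLA-266. All treated values lay well above the untreated ones, and the lines were close within each condition. The log2 fold change was 1.71 (SE 0.20, edgeR adjusted p = 0.000449), and the within-line ratios were 1.67 (1.56 to 1.78) and 1.74 (1.63 to 1.85). The gene (chromosome 1, 212565334 to 212620777, plus strand) stood at 54.9 and 53.0 times the olfactory receptor 95th percentile in untreated BT-16 and CHLA-266. In the treated libraries, where that percentile was higher, it stood at 19.5 and 27.8 times.

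*EGR1* showed the largest change among the 10 genes in either direction. BT-16 had 11311 counts before treatment and 1022 after it, and CHLA-266 had 4862 before and 537 after. In CPM it fell from 164 to 17.7 in BT-16 and from 79.0 to 10.3 in CHLA-266. Untreated BT-16 cells had 2.08 times the level of untreated CHLA-266 cells, and every treated value was below every untreated value. The log2 fold change was -3.12 (SE 0.37, edgeR adjusted p = 0.000552), a level of 0.115 of that in untreated cells. Without untreated BT-16, the library with the highest level, the log2 fold change was -2.49, and over the 4 fits that left out 1 library it ran from -3.55 to -2.49, called in each. The ratios were -3.21 (-3.31 to -3.12) in BT-16 and -2.93 (-3.07 to -2.81) in CHLA-266. Ranked per kilobase among 17985 genes, *EGR1* went from place 742 to 5231 in BT-16 and from 1710 to 7118 in CHLA-266. It stood at 865 and 354 times the olfactory receptor 95th percentile in untreated BT-16 and CHLA-266. In the treated libraries, where that percentile was higher, it stood at 10.4 and 7.26 times. The gene has 2 exons on chromosome 5 (138465479 to 138469303, plus strand), downstream of the CArG boxes printed above.

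*EGR3*, a related zinc finger gene that EGR-inducing signals also switch on, was per kilobase the lowest of the 10 genes in all 4 libraries. BT-16 held 327 counts before and 170 after treatment, and CHLA-266 177 before and 122 after. The log2 fold change was -0.53 (SE 0.45, edgeR adjusted p = 0.376), with ratios of -0.69 (-0.96 to -0.42) and -0.29 (-0.64 to 0.05). In the treated libraries it was 1.08 and 1.03 times the olfactory receptor 95th percentile, so its level there was close to the upper end of genes these cells are not expected to use. An antisense noncoding gene shares 164 of its exonic bases. Its place, on chromosome 8 from 22687659 to 22693480 on the minus strand, is given without sequence.

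In CPM per kilobase, the order of the 10 genes changed between conditions. In untreated cells *JUND* was first (61.3 in BT-16 and 55.7 in CHLA-266). *EGR1* (52.3 and 25.2) and *FOSL1* (24.5 and 30.6) followed, with ranges that overlapped each other. *FOSL2* (19.0 and 11.1) overlapped both *JUN* (15.8 and 14.7) and *JUNB* (14.0 and 8.98), which did not overlap each other. *FOS* (5.96 and 5.31) stood above *ATF3* (3.32 and 3.77), and *FOSB* and *EGR3* were at or below 1.19. In treated cells *JUND* (45.9 and 54.6) and *FOSL2* (49.2 and 44.9) were first with overlapping ranges, then *JUN* (24.5 and 30.5) and *FOSL1* (22.0 and 27.6), which overlapped too. *ATF3* (10.5 and 12.6) stood above *FOS* (7.75 and 8.46) and *JUNB* (8.99 and 5.66), which overlapped, and above *EGR1* (5.64 and 3.29). *FOSL2* climbed from place 2396 to 512 among all genes in BT-16 and from 3840 to 639 in CHLA-266.

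**Figure D3:**
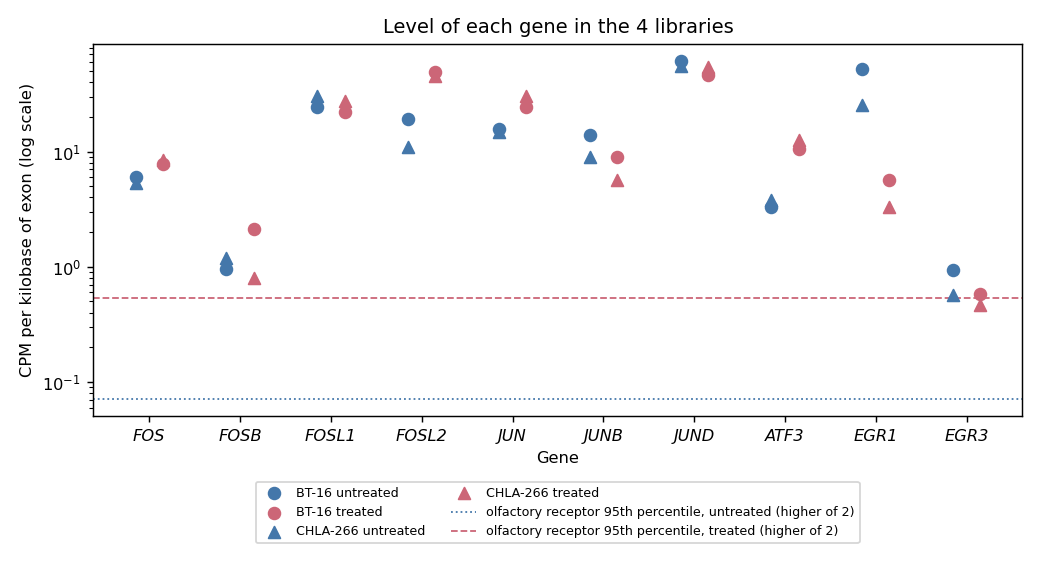
The vertical axis gives CPM per kilobase of exon on a log scale for each of the 10 genes, with blue untreated and red treated libraries, circles for BT-16 and triangles for CHLA-266. Lines mark the olfactory receptor 95th percentile, the higher of the 2 libraries of a condition. *EGR1* drops from 52.3 and 25.2 to 5.64 and 3.29. Treated *EGR3* lies close to the treated line at 0.541, above it in BT-16 (0.584) and below it in CHLA-266 (0.466).

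Counted within each line, 3 of 10 genes had a log2 ratio of at least 1 in BT-16 (*FOSB*, *FOSL2* and *ATF3*), against 35.3% of all genes, and 1 of 10 had a ratio of -1 or less (*EGR1*), against 12.1%. In CHLA-266 the 3 genes were *FOSL2*, *JUN* and *ATF3*, against 31.8% of all genes, and *EGR1* was again the 1 gene at or below -1, against 13.3%. These counts were near the background, and nothing is read from them about the genes as a group.

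Of 12 further genes that encode AP-1 partners or other zipper factors, 3 rose (against 16.1% of all genes), none fell (against 19.1%) and 9 did not pass. By edgeR 0 were lower at an unadjusted p under 0.05, and 0 were called lower by DESeq2. Their median log2 fold change was 1.12. It was 0.73 for the 9 whose lowest count reached 10. With limma on the variance-stabilized values it was 0.40, against 0.16 for all genes. In both treated libraries, 6 of the 12 stood above the olfactory receptor 95th percentile. Of the 3 that rose, 2 did so. *MAFF*, a small MAF protein without an activation domain, rose in BT-16 from 634 to 2311 counts, in CHLA-266 from 768 to 2729 (log2 fold change 2.09, SE 0.24, edgeR adjusted p = 0.000403). *MAFG*, of the same kind, rose by a log2 fold change of 0.65 (edgeR adjusted p = 0.0133). *ATF2*, a JUN partner and the most abundant of the list, had a log2 fold change of -0.10 (edgeR adjusted p = 0.607).

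Of 33 other immediate early genes, 8 rose, 4 fell and 21 did not pass, with a median of 0.40, beside 16.1% higher and 19.1% lower over all genes and an overall median of 0.24. Among those that rose, *PLK2*, a p53-responsive kinase, went in BT-16 from 56 to 1302 counts, in CHLA-266 from 18 to 642 (log2 fold change 4.97, SE 0.55, edgeR adjusted p = 0.000352). The orphan nuclear receptor genes *NR4A3* (3.55) and *NR4A2* (3.34) and the Krüppel-like factor gene *KLF4* (2.53) rose as well on the log2 scale. *KLF4* stood at 3.21 and 3.93 times the olfactory receptor 95th percentile in untreated BT-16 and CHLA-266 and at 2.68 and 2.83 times after treatment. For *NR4A2* these multiples were 3.15 and 1.05 before and 3.59 and 1.67 after. They were 4.03 and 9.83 before and 12.0 and 10.0 after for *NR4A3*. *PLK2* had 2.89 and 0.884 before and 8.96 and 5.86 after. *ARC*, an activity-regulated gene of neurons, fell in BT-16 from 1461 to 242 counts, in CHLA-266 from 858 to 158 (log2 fold change -2.28, SE 0.33, edgeR adjusted p = 0.00136). After treatment it was at 2.59 and 2.24 times the olfactory receptor 95th percentile. *MYC* (-0.59), the inhibitor of DNA binding gene *ID3* (-0.74) and the survival gene *MCL1* (-0.52) fell less. With upper-quartile normalization or library totals, 1 of the 4 genes was called lower. *CCN1*, the most abundant gene of the list, had a log2 fold change of -0.23 (edgeR adjusted p = 0.320).

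Of 28 tested genes of upstream kinases and factors, 4 rose, 8 fell and 16 did not pass, with a median of -0.24. Over all genes 16.1% were higher, a share near that of the 4, and 19.1% lower. *RPS6KA5*, which encodes the kinase MSK1 that phosphorylates CREB and histone H3, rose in BT-16 from 1209 to 3691 counts, in CHLA-266 from 995 to 4281 (log2 fold change 2.12, SE 0.19, edgeR adjusted p = 0.000119). *RPS6KA4*, which encodes the related MSK2, fell from 4158 to 1377 and from 3499 to 1466 counts (-1.17, SE 0.17, edgeR adjusted p = 0.00158). *MAP2K2*, which encodes MEK2, a kinase that phosphorylates ERK, rose by 1.07 on the log2 scale and was the most abundant of the list. *SRF*, which encodes the factor that binds CArG boxes, fell in BT-16 from 4400 to 1395 counts, in CHLA-266 from 3904 to 2171 (-0.95, SE 0.25, edgeR adjusted p = 0.0186). Its cofactor gene *ELK4* (-0.64) and the JNK2 gene *MAPK9* (-0.92) fell too. *MAPK10* (2.77) and *RPS6KA2* (2.68) were called higher at levels under the olfactory receptor 95th percentile, between 0.0816 and 0.488 times in the treated libraries. The number called lower dropped to 2 with upper-quartile normalization.

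Of 11 genes for decay factors, corepressors and ubiquitin ligases that act on these factors or their messages, 1 rose, 1 fell and 9 did not pass, with a median of -0.22 (all genes: 16.1% higher and 19.1% lower). *FBXW7*, a ubiquitin ligase subunit that targets JUN, rose by 0.58 (edgeR adjusted p = 0.0190) and the corepressor gene *NCOR1* fell by 0.62 on the log2 scale (edgeR adjusted p = 0.0169). *ZFP36L1*, whose protein binds AU-rich elements of short-lived messages and which was the most abundant of the list, had a log2 fold change of -0.13 (edgeR adjusted p = 0.554).

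Of 30 tested genes commonly described as AP-1 or EGR1 targets, 10 rose, none fell and 20 did not pass, where 16.1% of all genes rose and 19.1% fell. By edgeR 1 was lower at an unadjusted p under 0.05, and 0 were called lower by DESeq2 without the block and 1 with it. Without treated BT-16, 4 were called lower by edgeR. Their median was 2.10, or 1.87 with 8 genes that had no more than 3 counts in either untreated library set to their bound. This median rested in part on genes with few counts. For the 17 targets whose lowest count reached 10, it was 0.82, against 0.0052 for all genes so restricted. With limma on the variance-stabilized values it was 0.45, against 0.16 for all genes. In both treated libraries, 13 of the 30 stood above the olfactory receptor 95th percentile. Of the 10 that rose, 5 did so. The list was chosen with earlier results of these data known, so its share called higher is not read as independent of them. *SPP1*, which encodes osteopontin, rose in BT-16 from 3633 to 22130 counts, in CHLA-266 from 619 to 12608 (log2 fold change 3.32, SE 0.64, edgeR adjusted p = 0.00534). *CCND1*, the cyclin D1 gene, rose from 8479 to 12374 and from 8235 to 17885 counts (1.12, SE 0.23, edgeR adjusted p = 0.00698), and *VEGFA*, an angiogenic factor gene, by 0.72 on the log2 scale (edgeR adjusted p = 0.0167). *MMP9*, a matrix protease gene, was called higher on 7 and 0 counts in untreated and 177 and 35 in treated cells, at 2.42 and 0.635 times the olfactory receptor 95th percentile after treatment. *CD44*, the hyaluronan receptor gene and the most abundant of the list, moved in BT-16 from 30665 to 19293 counts, in CHLA-266 from 23561 to 40440 and did not pass (0.43, edgeR adjusted p = 0.335). Without either CHLA-266 library, 5 of the target genes were called higher in place of 10.

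**Figure D4:**
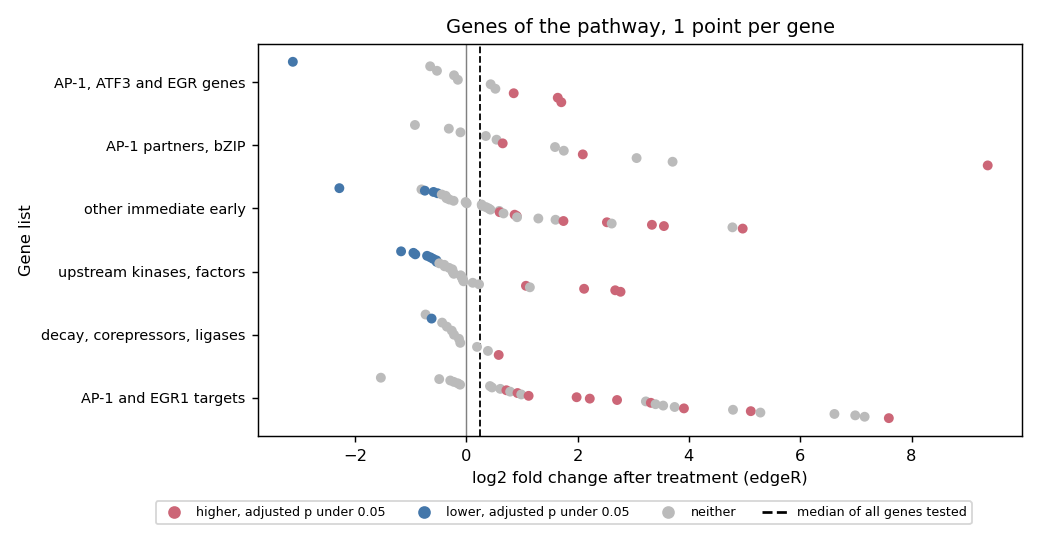
Each point is 1 gene, placed by its edgeR log2 fold change after treatment (horizontal axis) in the row of its list (vertical axis), red where called higher, blue where called lower and gray otherwise. The dashed line is the median of all genes tested, 0.24. Upstream kinases and factors lie mostly to the left of it (median -0.24) and the target genes mostly to the right (2.10). For the 17 targets whose lowest count reached 10, the median was 0.82.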

How the data were processed

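RNA-seq libraries were made from 10 ng RNA with a stranded kit. According to the methods, the authors demultiplexed with bcl2fastq 2.20, trimmed adapters, aligned to hg38 with STAR and counted reads per gene. The deposited table held counts (5 values not whole, treated as estimated counts and rounded), and a second deposited table held log2-scale variance-stabilized values, used as an alternative. Strand and read-pair settings of the counting were not given in the sources used here: 20.5% to 34.2% of counts from 1 to 20 were odd, so halved counts were an alternative. The 10 genes and the gene lists were chosen with earlier results of these data known. The comparison of treated with untreated cells used edgeR 4.0.16 (TMM, quasi-likelihood test, Benjamini-Hochberg over all 18066 genes, adjusted p under 0.05, R 4.3.3). Alternatives were the cell line as replicate block, DESeq2 1.42.0, other scalings, filters on low counts, limma 3.58.1 and leaving out each library. Same-line libraries deviated together (correlation 0.369 over 12431 genes), and the pairing comes from the cell line. Within-line ratios had 0.5 counts added and exact Clopper-Pearson intervals. These intervals reflect counting error alone and would be too narrow were both reads of a pair counted. Exon lengths, coordinates and overlaps came from GENCODE for 18357 of the 18449 symbols. From each list, up to 4 genes of smallest adjusted p in each direction that moved alike in both lines were named, and the most abundant gene. The values of 1 such gene are not reported here.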

Additional observations from a re-analysis of the deposited data

Results flagged for a closer look

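*FOSB* was singled out because its 2 cell lines moved in opposite directions under the same contrast. The log2 ratio of treated to untreated cells stood at 1.13 for BT-16 and at -0.57 for CHLA-266. With 1 library per line and condition the difference between the lines was not tested. The counts behind it went from 370 to 681 in BT-16, against 408 to 232 in CHLA-266.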

How the results depend on the processing

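*FOSL2*, *JUN*, *ATF3* and *EGR1* kept their direction and their call in all 10 alternatives and in the 4 fits that left out 1 library. With the cell line as replicate block, 2 of the 10 genes were called lower in place of 1 (*JUNB* at -0.65), and *FOS* was called at 0.52; leaving out 1 library gave 1 to 2. The block changed no other call of the 10 genes, but raised the zipper factors called higher from 3 to 5, the decay and corepressor genes called lower from 1 to 3 and the target genes called lower from 0 to 2, which numbered 4 without treated BT-16. Small changes turned with scaling: *FOSL1* was 0.19 with upper-quartile normalization, 0.0702 with library totals and 0.0266 with at least 10 counts in every library, and *JUND* 0.13 and 0.0046 with the former 2. Within BT-16, *FOSL1* was 0.24 and 0.13, and within CHLA-266 0.15 and 0.0192. Without 1 library, *FOSL1* ran from -0.32 to 0.0173 and *FOSB* from -0.43, without treated BT-16, to 0.98. *JUNB* ran from -1.02, called without treated BT-16, to -0.29, and *FOS* from 0.44 to 0.61, called in none of these fits. All genes called lower numbered 1895 with upper-quartile normalization against 3454, and the higher share of calls was 69.7% there and 61.0% with library totals against 45.7%. The median of all genes moved from 0.24 to 0.59 and 0.46. Other immediate early genes called lower dropped from 4 to 1, and upstream genes from 8 to 2 and 3, under these scalings. With at least 10 counts in every library they were 1 and 3, and with limma on the variance-stabilized values 1 and 4. Without untreated BT-16 or untreated CHLA-266 they were 1 and 2, and 5 and 4, and upstream genes 5 without treated CHLA-266. Immediate early genes called higher reached 13 with DESeq2. The cause of these changes was not tested. At 122 to 327 counts, *EGR3* had the widest counting intervals of the 10 genes.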
